A study of Mus musculus with 15 samples.

Results

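Npbwr1, Psd2, Ces1d, Nell1, Coch and Sox14 are 6 genes, of 55523 rows in the count matrix, whose estimated counts in whole pituitary glands were higher in mice that lacked the Nr5a1 pituitary enhancer (PE) on both chromosomes. Each symbol had 1 row, so no choice between rows was needed. The genes were chosen by their measured estimated counts, higher in PE-/- than in PE+/- libraries, with no numeric threshold, which makes their genotype differences a description without a test. The mice carried a CRISPR/Cas9 deletion of the enhancer, which lies in an intron of Nr5a1, the gene for a nuclear receptor that in the pituitary is made in gonadotropes. Mice with the deletion on one chromosome (PE+/-) were the controls for mice with the deletion on both (PE-/-), so every library carried at least one deleted copy. RNA-seq was done on 4 PE+/- male, 4 PE-/- male, 4 PE+/- female and 3 PE-/- female pituitaries. Strain, age and the number of animals per library are not given in the sources used here. P-values therefore measure the spread between these samples.

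The 6 proteins belong to unrelated families. Npbwr1 encodes a G-protein-coupled receptor for the neuropeptides B and W, which in the brain bears on feeding and stress responses. Psd2 encodes an exchange factor that loads GTP onto the small GTPase Arf6, a switch for membrane traffic at the cell surface. Ces1d encodes a carboxylesterase that hydrolyses esters and triacylglycerol and is best known in liver and adipose tissue. Nell1 encodes a secreted glycoprotein with a role in bone formation, and its relative Nell2 is a ligand of Robo receptors. Coch encodes cochlin, an extracellular matrix protein known for its abundance in the inner ear. Sox14 encodes a transcription factor of the group of Sox proteins that act mainly as repressors, known for its place in neurons of the developing brain.

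The RefSeq promoter table held 3 of the 6 genes, Nell1, Coch and Sox14. The sequences of the 2 genes with the lowest PE+/- levels, Coch and Sox14, are shown because these levels were near the floor of detection. Each covers the 250 bases before the RefSeq start of the gene (GRCm38.p6), 5′ to 3′ on the strand of the gene, with the GC box letters GGGCGG on either strand in capitals. The Coch sequence is chr12:51593091-51593340 on the plus strand and the Sox14 sequence is chr9:99876171-99876420 on the minus strand.
Coch: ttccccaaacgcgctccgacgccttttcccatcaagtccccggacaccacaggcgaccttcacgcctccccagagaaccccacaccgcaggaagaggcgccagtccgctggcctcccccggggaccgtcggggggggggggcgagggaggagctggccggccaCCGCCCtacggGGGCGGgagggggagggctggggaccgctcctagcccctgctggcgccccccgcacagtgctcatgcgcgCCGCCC
Sox14: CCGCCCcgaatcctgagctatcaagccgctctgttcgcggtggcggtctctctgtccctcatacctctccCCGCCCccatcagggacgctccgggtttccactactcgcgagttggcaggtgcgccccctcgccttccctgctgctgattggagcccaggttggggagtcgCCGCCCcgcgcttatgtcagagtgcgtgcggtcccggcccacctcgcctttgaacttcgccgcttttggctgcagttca
The GC content of these windows was 74.8% for Coch and 65.6% for Sox14, and that of the same window of Nell1 was 72%, which lies in an annotated 5′ UTR of longer transcripts and is not printed. The median over 32851 promoters of that length was 52.4%. Each of the 3 windows held 3 GC boxes, a motif found at least once in 32.74% of all promoters. They held 24 CpG dinucleotides in Coch, 23 in Sox14 and 22 in Nell1, beside a median of 6. Searched on both strands, none of the 3 held the letters of the NR5A1 element AAGGTCA (4.079% of all promoters), the palindromic oestrogen response element (0.06392%), the palindromic androgen response element (0.009132%), the Pitx element TAATCC (6.252%), the E-box CACGTG (6.021%) or the TATA box TATAAA (12.37%). These are letter matches in a short window and say nothing of a factor at these genes.

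Library totals ran from 12982794 to 30238443 estimated counts, and about 4 counts stood for 1 fragment. A count of 12, or 3 fragments, was taken as the floor of detection. Values are given as CPM, counts scaled to a common library size after correction of each total by the trimmed mean of M values (TMM). Nr5a1 lay between 33.4 and 80.1 CPM in the 8 PE+/- libraries and between 0 and 0.923 CPM in the 7 PE-/- libraries, which matches the labels. The tissue label was borne out by the hormone genes Gh, Prl, Pomc, Tshb, Lhb, Fshb and Cga, which had counts in all 15 libraries.

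On GRCm38 (mm10) with the GENCODE M21 annotation, the genes lie on 6 different chromosomes. Npbwr1 (MSTRG.27) spans chromosome 1, 5913707 to 5917398, on the minus strand in a single exon. Psd2 (MSTRG.11574) spans chromosome 18, 35964830 to 36014715, on the plus strand. Ces1d (MSTRG.24344) spans chromosome 8, 93166068 to 93197838, on the minus strand. Nell1 (MSTRG.22156) is the longest, at chromosome 7, 49974864 to 50866608, on the plus strand. Coch (MSTRG.5317) spans chromosome 12, 51593341 to 51605771, on the plus strand. Sox14 (MSTRG.26010) spans chromosome 9, 99874106 to 99876170, on the minus strand in a single exon. No 75-base word of the transcripts of these 6 genes was shared with the transcripts of another gene. Other annotated genes overlap Ces1d and Nell1 without sharing exonic bases, and the highest of them (Gm45909, inside Ces1d) had 13 counts over all libraries together.

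Npbwr1, the neuropeptide receptor, was at 3.59, 2.25, 3.17 and 1.93 CPM in the PE+/- males and at 38.4, 39.7, 30.0 and 20.7 CPM in the PE-/- males. In females it was at 2.56, 0.934, 2.31 and 2.25 CPM in PE+/- and at 32.3, 41.0 and 49.8 CPM in PE-/-. In both sexes the lowest PE-/- library lay far above the highest PE+/- library, by 5.77-fold in males and 12.6-fold in females. The means were 2.73 ± 0.776 (SD, n = 4) and 32.2 ± 8.79 CPM (n = 4) in males, a log2 fold change of 3.55 (SE 0.29). They were 2.01 ± 0.731 (n = 4) and 41.0 ± 8.72 CPM (n = 3) in females, a log2 fold change of 4.33 (SE 0.37).

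Psd2, the Arf6 exchange factor, was at 1.83, 1.05, 1.71 and 1.54 CPM in the PE+/- males and at 15.8, 19.7, 15.6 and 11.2 CPM in the PE-/- males. The PE+/- females had 0.930, 0.934, 2.04 and 2.85 CPM and the PE-/- females 12.7, 18.8 and 24.2 CPM. No PE-/- library came within the PE+/- range, although the spread of the PE+/- females was wide (coefficient of variation 55.4%, against 22.2% in PE+/- males). The change was 3.33 on the log2 scale in males (SE 0.25) and 3.43 in females (SE 0.46), about the same size in each sex. Npbwr1 and Psd2 thus lay about one order of magnitude higher in PE-/- mice, from levels that were low but above 0 in every library. Psd2 had only 12 to 47 counts in the PE+/- libraries, and PE+/- female replicate 1, at 12, was at the floor.

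Ces1d, the carboxylesterase, was at 15.6, 9.99, 14.0 and 10.3 CPM in the PE+/- males and at 56.3, 61.0, 40.8 and 41.1 CPM in the PE-/- males. In females it was at 17.6, 11.5, 13.3 and 9.59 CPM in PE+/- and at 43.6, 42.1 and 67.5 CPM in PE-/-. The ranges of the sexes were nearly superimposed in each genotype. The log2 fold change was 1.99 (SE 0.21) in males and 1.95 (SE 0.27) in females. Its relative spread within groups was even, with coefficients of variation from 20.9% to 27.98%.

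Nell1, the secreted glycoprotein, was at 20.2, 10.6, 7.81 and 15.2 CPM in the PE+/- males and at 56.9, 46.1, 54.3 and 29.9 CPM in the PE-/- males. It was at 7.59, 9.04, 9.90 and 11.04 CPM in the PE+/- females and at 45.4, 55.3 and 52.2 CPM in the PE-/- females. The gap between genotypes was the narrowest of the 6 genes in males, where the lowest PE-/- library was 1.48-fold above the highest PE+/- library. In females the same ratio was 4.11, and replicates were close (coefficients of variation 15.5% and 9.89%). The log2 fold change was 1.79 (SE 0.33) in males and 2.42 (SE 0.17) in females.

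Coch, the gene for cochlin, was close to the floor in PE+/- mice. The males had 16, 22, 5 and 8 counts in PE+/- (1.13, 1.01, 0.305 and 0.515 CPM) and 400, 455, 565 and 311 counts in PE-/- (20.2, 17.9, 26.3 and 17.3 CPM). The females had 0, 22, 0 and 30 counts in PE+/- and 283, 847 and 783 counts in PE-/- (17.4, 26.95 and 34.2 CPM). A count of 0 in PE+/- female replicates 1 and 3 allows up to 0.930 and 0.646 CPM. Pooled over libraries and expressed in fragments, the PE-/- level was 26.8 times the PE+/- level in males (95% interval 15.5 to 50.7) and 37.3 times in females (21.6 to 70.5). These intervals, from the exact conditional binomial, cover counting error and not the spread between libraries.

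Sox14 had the lowest counts of the 6 genes. The PE+/- males had 5, 5, 5 and 12 counts, none above the floor, and the PE-/- males 151, 231, 205 and 76 counts (7.62, 9.09, 9.54 and 4.24 CPM). Of the PE+/- females, 3 had 0 counts and replicate 2 had 13 counts, while the PE-/- females had 85, 345 and 187 counts (5.22, 10.98 and 8.18 CPM). Every PE-/- library was above every PE+/- library. The pooled ratio was 19.1 in males (95% interval 9.04 to 48.1, from 166 against 7 fragments) and 52.0 in females (17.5 to 255, from 154 against 3 fragments). The size of the female ratio therefore rests on about 3 fragments in 1 library.

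**Figure D1:**
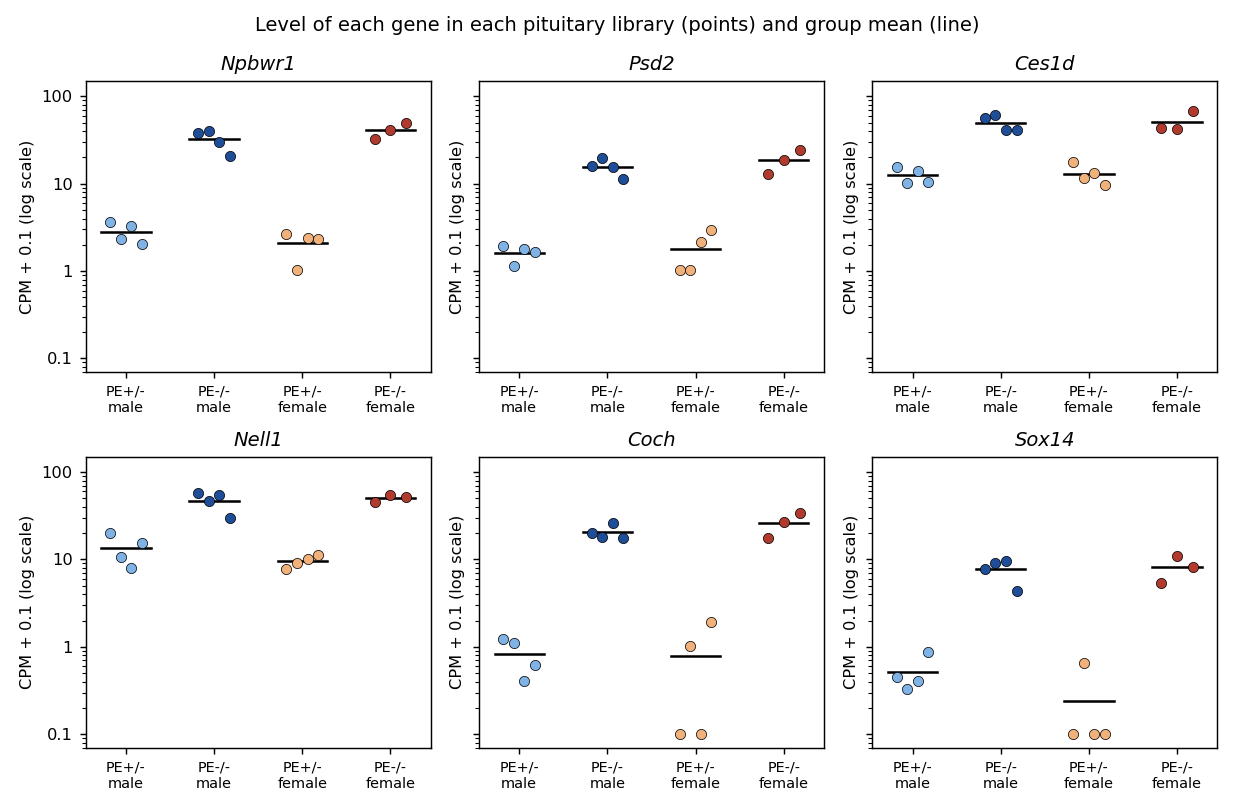
Level of each of the 6 genes in each of the 15 libraries, as CPM plus 0.1 on a log axis shared by all panels, with groups on the horizontal axis. Points are libraries in replicate order and lines are group means; in each panel all PE-/- points lie above all PE+/- points of the same sex, and the points at 0.1 are Coch and Sox14 libraries with 0 counts.

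The plot of levels by library shows the pattern that chose the genes. All 6 had groups that did not overlap in males, beside 2.59% of the 17392 genes tested there with PE-/- above PE+/-, and in females, beside 10.2% of 18085. With edgeR and an adjusted p under 0.05, 5 of the 6 were called higher in males (Nell1 was not), beside 0.0460% of all genes tested. In females 4 of the 6 were called higher (Coch and Sox14 were not), beside 0.348%. With one fit on all 15 libraries Nell1 also passed in males, and Coch and Sox14 in females. Coch and Sox14 also passed in females with counts divided by 4. DESeq2, which called more genes over the whole table, placed all 6 past the threshold in each sex, beside 0.546% of all genes higher in males and 3.40% in females. Since these contrasts chose the genes, nothing is read from the shares. Of all genes tested in both sexes, edgeR called 4 higher in both (0.0234%), Psd2, Npbwr1, Ces1d and Efnb3. These were 50% of the 8 genes called higher in males and 6.35% of the 63 called higher in females. In whole glands, more cells that make a transcript and more of it per cell cannot be told apart.

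Single libraries bore on the calls. The direction could hardly turn on leaving out 1 library, since the groups of all 6 genes did not overlap. Without PE-/- male replicate 1 or replicate 2 the male count was 3 of 6 (Npbwr1, Psd2 and Coch). Without PE+/- male replicate 1 or 3 the call of Sox14 was lost, and without PE+/- male replicate 4 that of Ces1d. Without PE+/- female replicate 2 or 3, or any one PE-/- female, the female count was 2 of 6 (Npbwr1 and Nell1), and without PE+/- female replicate 4 it was 3, with Psd2. Over the fits that left out 1 library, the log2 fold change of Npbwr1 stayed between 3.41 and 3.70 in males and between 4.08 and 4.48 in females. That of Ces1d stayed between 1.89 and 2.12 in males and between 1.70 and 2.14 in females. Sox14 in females went from 5.16 to 10.32, the latter without PE+/- female replicate 2, when all remaining PE+/- females were at 0 and the fitted value depends on the prior count.

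Per kilobase of exon, the order of the levels differed between genotypes. In PE-/- males Ces1d had the highest level, 21.0 ± 4.395 CPM per kb (SD, n = 4), followed by Npbwr1 at 8.71 ± 2.38, Coch at 6.82 ± 1.37, Nell1 at 6.44 ± 1.67, Sox14 at 3.69 ± 1.16 and Psd2 at 3.25 ± 0.724 CPM per kb. The order was the same in PE-/- females, from 21.6 ± 6.03 for Ces1d to 3.88 ± 1.20 for Psd2 (n = 3). Npbwr1 and Coch, Coch and Nell1, and Sox14 and Psd2 lay within their spread of each other in males. In PE+/- males Ces1d was again highest (5.26 ± 1.16 CPM per kb), but Nell1 came next (1.85 ± 0.746), before Npbwr1 (0.740 ± 0.210), Psd2 (0.321 ± 0.0711), Coch (0.246 ± 0.131) and Sox14 (0.201 ± 0.118), and the last 3 lay within their spread. PE+/- females had the same order, from 5.48 ± 1.44 for Ces1d to 0.0668 ± 0.134 for Sox14. Coch thus moved from among the lowest to the middle of the order.

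**Figure D2:**
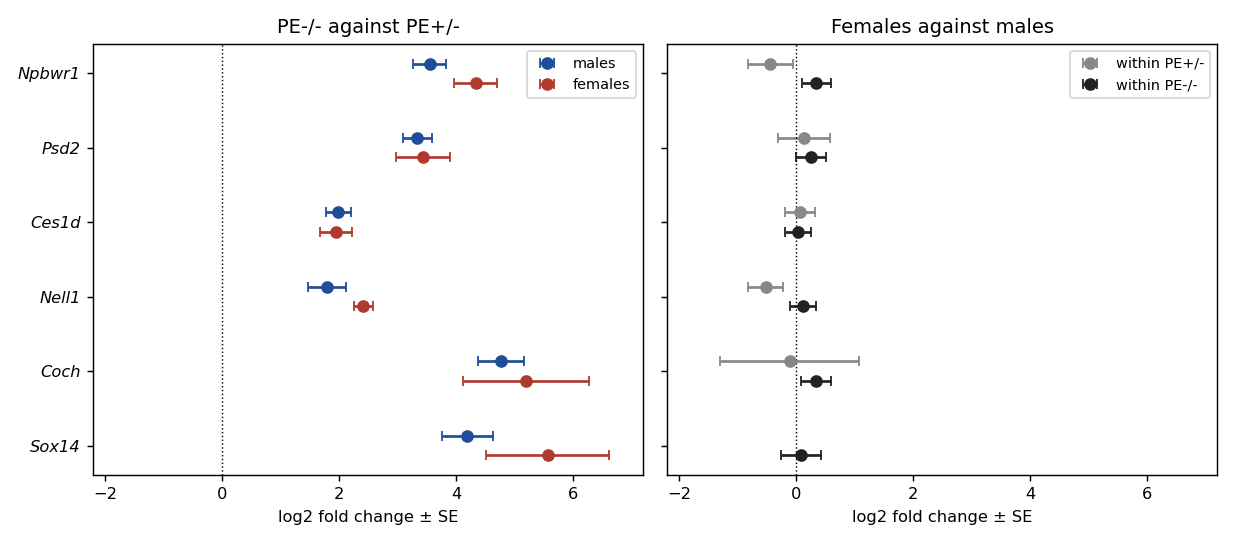
Log2 fold change with its standard error for each gene, PE-/- against PE+/- in males and females (left) and females against males within each genotype (right), on the same scale. Genotype differences lie between 1.79 and 5.56, while the sex differences lie between -0.52 and 0.35; Sox14 was not tested between PE+/- females and males.

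The sexes were compared within each genotype, a contrast that the choice of genes did not use, although it shares libraries with those that did. Within PE-/-, females and males did not differ past the threshold for any of the 6 genes (0 of 6, beside 0.0494% of 18217 genes by edgeR; 0 at an unadjusted p under 0.05, beside 3.37%; 0 by DESeq2, beside 0.225%). The female to male log2 difference was 0.35 for Npbwr1 (95% interval -0.23 to 0.93), 0.25 for Psd2 (-0.35 to 0.85) and 0.03 for Ces1d (-0.50 to 0.57). It was 0.11 for Nell1 (-0.41 to 0.63), 0.35 for Coch (-0.25 to 0.95) and 0.08 for Sox14 (-0.71 to 0.87). A sex difference of the size of the smallest genotype change, 1.79 on the log2 scale, lies outside all 6 intervals, but a difference of 0.5 lies inside each.

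Within PE+/-, 0 of the 5 genes tested differed between the sexes (beside 0.670% of 17163 genes by edgeR; 0 at an unadjusted p under 0.05, beside 13.5%; 0 by DESeq2, beside 5.26%), and Sox14 was too low to be tested. The log2 difference was -0.44 for Npbwr1 (95% interval -1.33 to 0.44, edgeR adjusted p = 0.691) and -0.52 for Nell1 (-1.20 to 0.16, edgeR adjusted p = 0.507). It was 0.14 for Psd2 (-0.88 to 1.16) and 0.07 for Ces1d (-0.50 to 0.64). For Coch, at -0.11, the interval ran from -2.82 to 2.61, so that a large sex difference in PE+/- was not detectable at these counts.

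The genotype change was larger in females than in males for 5 of the 6 genes, by 0.79 on the log2 scale for Npbwr1 (95% interval -0.17 to 1.76), 0.63 for Nell1 (-0.21 to 1.47), 0.43 for Coch (-1.95 to 2.81), 0.10 for Psd2 (-0.99 to 1.19) and 1.38 for Sox14 (-1.003 to 3.76). For Ces1d it was 0.03 lower (-0.03, -0.77 to 0.71). All 6 intervals include 0. The plot of changes shows this as female points to the right of male points for all but Ces1d.

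Within groups, the same libraries tended to be high or low for several of the genes. PE-/- male replicate 4 was the lowest of its group for 5 of the 6 genes, all but Ces1d. PE-/- female replicate 1 was the lowest of its group for 5, again all but Ces1d. PE+/- male replicate 1 was the highest of its group for 5, all but Sox14. For how many of all genes these libraries were lowest or highest was not counted, so nothing particular to the 6 genes is read from this. These 3 libraries also stood apart in the summed level of 8 gonadotrope markers. PE-/- male replicate 4 had 1356 CPM against 6507 to 7020 in the other PE-/- males, PE-/- female replicate 1 had 2271 against 5968 and 7162, and PE+/- male replicate 1 had 16980 against 9600 to 11440. Most of that sum is Cga, the shared hormone subunit that thyrotropes also make. The other 7 markers summed to 37.97 CPM in PE-/- male replicate 4 against 109 to 177 in its group and to 74.96 CPM in PE-/- female replicate 1 against 104 and 136, while PE+/- male replicate 1, at 4069 CPM, lay within its group (2736 to 4588). PE-/- male replicate 4 had the highest Nr5a1 level of its group (0.725 CPM, 13 counts) and the lowest thyrotrope sum (166 CPM against 336 to 498). It also had the highest lactotrope sum (40420 CPM against 4909 to 16600). PE-/- female replicate 1 had the highest somatotrope sum of its group, 173700 CPM against 88820 and 104400. Its stem or folliculostellate sum was the lowest, 118 CPM against 169 and 179. PE+/- male replicate 1 had the highest endothelial sum of its group, 353 CPM against 76.5 to 119. These libraries thus did not stand apart in gonadotrope markers alone. The part of gland composition in the spread of the 6 genes was not tested. Without PE-/- male replicate 4, all 5 genes called in males stayed past the threshold, with log2 fold changes from 2.06 for Ces1d to 4.83 for Coch.

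Other cell types were followed through 13 marker lists. Among gonadotrope markers, 4 of 8 passed the threshold as lower in PE-/- males (Lhb, Gnrhr, Nr5a1 and Nr0b1), beside 0.0862% of all genes. In PE-/- females 6 of 8 did (with Tgfbr3l and Spp1), beside 0.697%. Nr5a1 is the gene whose enhancer was deleted, and the paper named Spp1, Tgfbr3l and Nr0b1 from the same genotype comparison. Their lower levels were thus known beforehand, and nothing is read from these shares. The rest of the 8 had negative values too. In males the log2 fold changes were -5.22 for Fshb, -5.05 for Tgfbr3l, -3.31 for Spp1 and -0.70 for Cga. In females they were -3.34 for Fshb and -0.37 for Cga. Of the 8, only Cga had genotype groups that overlapped. Apart from the gonadotrope markers that passed and Prl, which passed as lower in PE-/- females, no member of the 13 lists passed the threshold. The summed level of 6 stem or folliculostellate markers lay between 64.4 and 143 CPM in PE+/- males and 128 and 155 CPM in PE-/- males, and in females between 76.4 and 108 CPM and between 118 and 179 CPM. The female groups of this sum did not overlap, with PE-/- higher, as was so for 10.2% of 18085 single genes. Summed levels of 5 neuron markers ran from 47.2 to 72.9 and from 48.9 to 61.9 CPM in males, and from 70.5 to 120 CPM in PE+/- and 58.6 to 68.1 CPM in PE-/- females. Posterior lobe markers were uneven, from 1.48 to 82.5 and 1.21 to 71.7 CPM in males and from 3.80 to 17.1 and 0.393 to 2.90 CPM in females. In females the neuron and posterior lobe sums did not overlap between genotypes either, with PE-/- lower. The share of all genes without overlap in that direction is not given here. Nothing is therefore read from any marker or sum that lay lower in PE-/- without overlap. Of 5 adipocyte markers, cell type genes of a tissue in which Ces1d is abundant, Adipoq, Plin1 and Cidec were at 0 in all 15 libraries, and the sum fell short of that in PE+/- mice in both PE-/- groups (2.61 to 3.22 and 1.81 to 2.17 CPM in males, 5.58 to 11.4 and 1.27 to 2.77 CPM in females), a sum made up almost wholly by Fabp4. Sums of endocrine markers that did not overlap between genotypes were those of gonadotropes in males (9600 to 16980 and 1356 to 7020 CPM), of somatotropes in males (133600 to 186900 and 65180 to 129400 CPM) and of lactotropes in females (21720 to 34940 and 4620 to 5624 CPM). The gonadotrope sum of all 8 markers overlapped in females (5961 to 9062 and 2271 to 7162 CPM). Without Cga, the other 7 markers did not overlap in females. They summed to 669 to 2310 CPM in PE+/- and to 74.96 to 136 CPM in PE-/- females. The part of other cell types in the higher levels of the 6 genes was not tested.

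Relatives of each gene by family, ligand or receptor were listed by what they are, 75 genes in all, of which 43 were tested. In males 0 were called by edgeR (3 at an unadjusted p under 0.05, beside 6.14% of all genes; 1 by DESeq2, beside 1.18%), with 19 genes above and 24 below 0 and a median log2 change of -0.04 (median of all genes 0.00). In females 1 was called by edgeR (7 at an unadjusted p under 0.05, beside 16.1% of all genes; 3 by DESeq2, beside 7.91%), with 28 above and 15 below 0 and a median of 0.20 (median of all genes 0.00). The share of genes called in either direction was 0.132% in males and 1.05% in females.

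The ligands of Npbwr1 were scarcely detected. Npb had between 0 and 18 counts in a library, and Npw had 0 in all libraries but 1. Among the receptors nearest to it in sequence, the somatostatin receptor Sstr5 averaged 27.04 ± 10.3 CPM (SD, n = 4) in heterozygous and 79.7 ± 15.3 CPM (n = 3) in homozygous females, a log2 fold change of 1.54 that did not pass (edgeR adjusted p = 0.0789), while the male means were 63.6 ± 16.4 and 67.0 ± 11.7 CPM. DESeq2 called Sstr5 in females. Sstr1, a second somatostatin receptor, had male means of 28.5 ± 18.1 (PE+/-) and 28.4 ± 13.3 CPM (PE-/-) and female means of 28.02 ± 10.8 and 29.7 ± 5.01 CPM. All 11 genes of the Arf6 list were tested and 0 were called in either sex by edgeR (0 at an unadjusted p under 0.05). The cytohesins Cyth1 and Cyth3, which activate Arf proteins, had log2 fold changes of -0.12 and 0.09 in males and -0.03 and 0.26 in females.

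Of 18 other carboxylesterases, 16 were too low to be tested, also those of the Ces1 cluster in which Ces1d lies. Ces2g averaged 2.52 ± 1.43 CPM in the PE+/- and 2.74 ± 0.959 CPM in the PE-/- males, and Ces2e was below 2 CPM in the mean of each group. For the Nell1 list, the guidance ligand Slit2 had log2 fold changes of 0.08 in males and -0.49 in females, and its receptor Robo2 -0.01 and 0.14. For Coch, the LCCL-domain genes Crispld2 and Dcbld2 had -0.40 and 0.08 in males and 0.73 and 0.29 in females. None of these passed the threshold. The Sox list held the 1 relative that did. Sox11, a Sox factor of neural and progenitor cells, was at 78.7, 59.5, 52.6 and 51.1 CPM in PE+/- females and at 146, 138 and 125 CPM in PE-/- females (log2 fold change 1.15, SE 0.19, edgeR adjusted p = 0.0435). In males its groups overlapped, at 92.0 to 135 and 73.5 to 111 CPM (-0.28). The difference between the sexes was 1.43 on the log2 scale (edgeR adjusted p = 0.0550; 0.161% of 19286 genes passed), and the female call was lost without any one of 6 of the 7 female libraries (adjusted p from 0.0932 to 0.165). Sox4 and Sox9, which also occur in pituitary progenitors, had log2 fold changes of -0.11 and 0.33 in males and -0.17 and 0.95 in females. Sox21, the closest relative of Sox14, had 0 counts in all libraries.

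**Figure D3:**
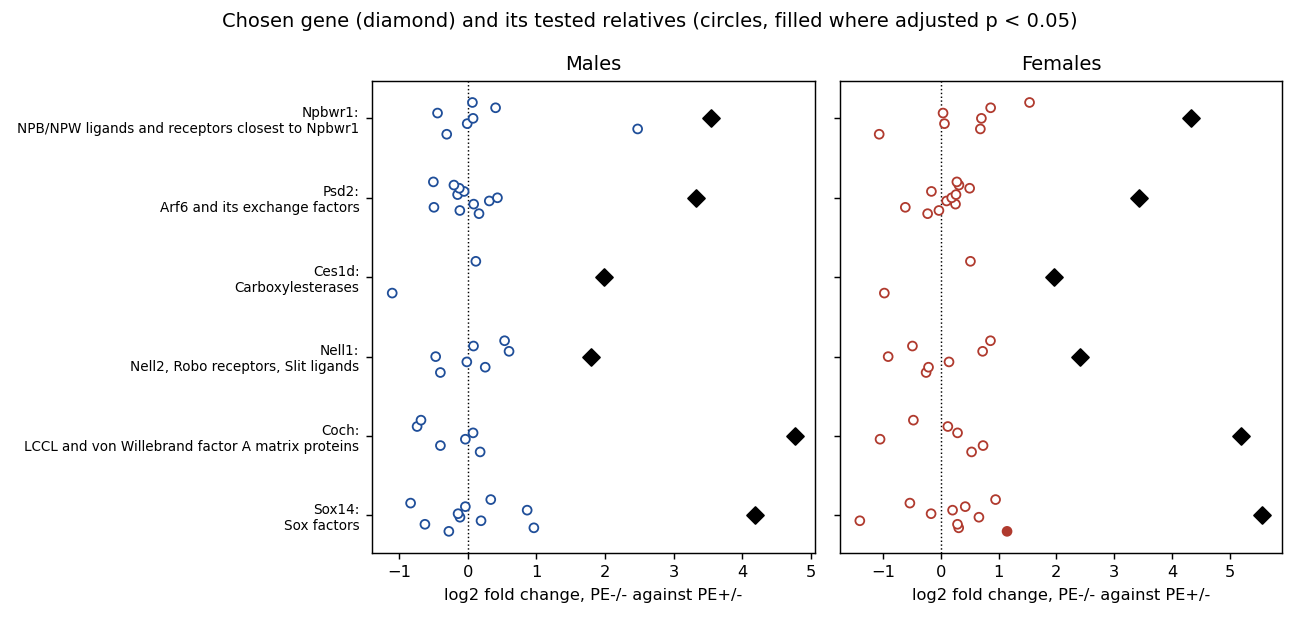
Log2 fold change of PE-/- against PE+/- in males (left) and females (right) for each of the 6 genes (diamonds) and its tested relatives (circles, filled where the adjusted p was under 0.05). Relatives lie mostly between -1.40 and 1.54 and only Sox11 in females is filled; the male circle at 2.48 in the Npbwr1 row is Oprl1.

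In the plot of relatives, 1 open circle stands near the diamonds. It is Oprl1, the nociceptin receptor, named after its values were seen, with a mean of 0.262 ± 0.308 CPM in heterozygous and 1.56 ± 0.692 CPM in homozygous males (edgeR adjusted p = 0.727).

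The nearest tested protein-coding gene on each side of each of the 6 genes was taken by position, 12 genes in all. By edgeR 0 of the 12 were called in either sex, beside 0.132% of all genes in males and 1.05% in females. At an unadjusted p under 0.05 there was 1 in each sex, beside 6.14% and 16.1%. DESeq2 called 0, beside 1.18% and 7.91%. With such shares, 0 or 1 of 12 is not particular to the flanking genes. In males 4 were higher and 8 lower, with log2 fold changes from -0.87 (Ano5) to 0.41 (Scfd1). In females 6 were higher and 6 lower, from -1.64 (Ano5) to 0.61 (Lpcat2). The closest pair was Coch and Strn3, 3.86 kb apart, and Strn3 averaged 11.7 (PE+/-) and 12.2 CPM (PE-/-) in males, 16.4 and 12.4 CPM in females. Oprk1, the kappa opioid receptor gene 307.6 kb from Npbwr1 and itself a relative of it, averaged 1.64 (PE+/-) and 1.33 CPM (PE-/-) in males, 2.99 and 1.44 CPM in females. The other flanking genes were Rb1cc1 for Npbwr1, Cxxc5 and Pura for Psd2, Gnao1 for Ces1d, Prmt3 for Nell1, and Dzip1l and Nck1 for Sox14.

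**Figure D4:**
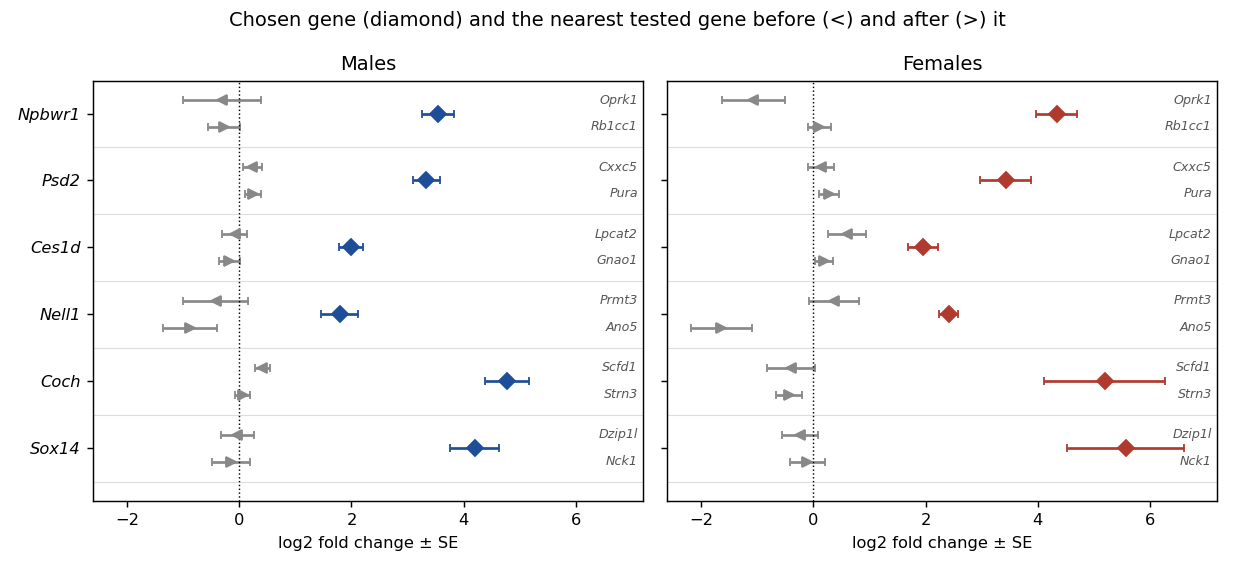
Log2 fold change with its standard error, PE-/- against PE+/-, for each of the 6 genes (diamonds) and the nearest tested gene before and after it (grey triangles, names at the right), in males (left) and females (right). All triangles lie between -1.64 and 0.61, below the diamond of the gene they flank.

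The plot of flanking genes sets each gene beside its neighbours. The higher PE-/- levels of the 6 genes were not accompanied by a call in a neighbour at any of the 6 loci, which does not show that neighbours were unchanged.

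Among 19286 genes, the 3 genes most like each of the 6 were sought by the root-mean-square difference of log2 CPM, centred on the mean of each gene, over the 15 libraries. Efnb3, an ephrin ligand, was nearest to Npbwr1 (difference 0.715, beside a median of 2.05 over all genes) and to Psd2 (0.482, median 1.78), and also in the list of Nell1 (0.472). Its male means were 2.63 ± 1.05 (PE+/-) and 16.2 ± 2.36 CPM (PE-/-), its female means 2.43 ± 0.817 and 21.5 ± 3.21 CPM. Lipk, a lipase, and BC030499 followed for Npbwr1 and Psd2, both at or below 1.08 CPM in the mean of every group. Ces1d was most like Car8, a carbonic anhydrase relative (0.417), Epha3, an ephrin receptor (0.423), and Slc17a8, a vesicular glutamate transporter (0.457), with a median of 1.13 over all genes. Nell1 was most like Opcml, a cell adhesion protein (0.434), and Rasgrp1, an activator of Ras (0.466).

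Coch and Sox14 had larger differences from their nearest genes, beside larger medians over all genes (2.94 for Coch and 2.58 for Sox14). Both were nearest to Otof, the gene for otoferlin, a calcium sensor of hair cell synapses (1.22 for Coch and 0.971 for Sox14). Otof had 0 counts in all PE+/- males and a mean of 2.80 ± 1.497 CPM in PE-/- males, with 8 counts in all PE+/- females together and 4.12 ± 0.600 CPM in PE-/- females. Timeless and Grm2 followed for Coch, and Naprt and Trank1 for Sox14. Among the 6 genes themselves, Psd2 was closer to Npbwr1 (0.497) and Sox14 closer to Coch (1.12) than any gene outside the 6 was, while 3 genes were closer to Ces1d than Nell1 was (0.484). The 6 were chosen as higher in PE-/- in these same libraries, so closeness among them follows in part from the choice and is only described. Genes at low counts share the value of 0 and the prior count, which sets part of this likeness.

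**Figure D5:**
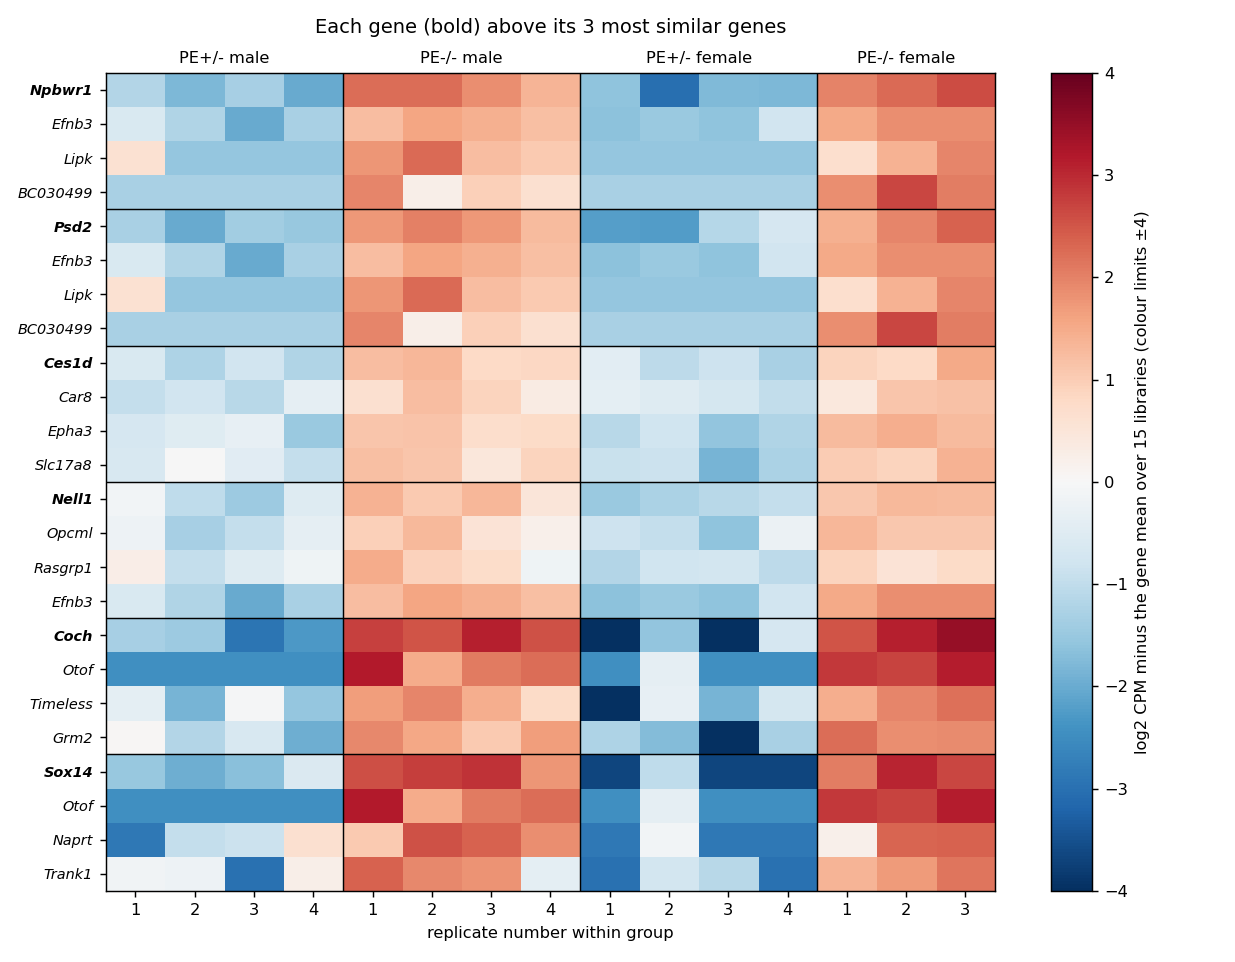
Log2 CPM minus the mean of each gene over the 15 libraries (colour, limits -4 to 4), for each of the 6 genes (bold) above the 3 genes most like it, with libraries in columns by group. In the bold rows PE-/- libraries are red and PE+/- libraries blue, with the strongest contrast for Coch and Sox14. Some of the similar genes (Lipk, Rasgrp1, Naprt, Trank1 and, barely, Grm2) have single PE+/- libraries above their mean. Rasgrp1 and Trank1 are below their mean in PE-/- male replicate 4.

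The heat map of similar genes gives the libraries behind these differences. The block of Ces1d is the most even within groups, while in the blocks of Coch and Sox14 several PE+/- libraries are at 0 counts, among them all 4 PE+/- males for Otof and 3 of 4 PE+/- females for Sox14. In the blocks of Npbwr1 and Psd2, BC030499 had 0 counts in all PE+/- libraries. Lipk had 5 counts in all PE+/- males together and 0 in the PE+/- females.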

How the data were processed

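RNA-seq libraries (15, with 4, 4, 4 and 3 per group) were made from whole pituitaries. Per the study's methods and the labels, adapters were removed by the authors with cutadapt, STAR served for alignment to mm10 and featureCounts for counting. Estimated counts in whole numbers, without normalization, make up the deposited table, whose row names and spacing (values of 5 occurred 1.71 times as often as adjacent values) resemble those of an assembly exported as estimated counts. Values were used as whole numbers, as deposited, and 0 columns were left unmatched. How an overlapping or antisense gene was counted is not given in the sources used here.

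Tests used edgeR 4.0.16 in R 4.3.3, with filterByExpr (minimum count 10, minimum total 15), TMM scaling, quasi-likelihood F tests that used only the 2 groups of each contrast, Benjamini-Hochberg adjustment over all genes tested and a threshold of 0.05, two-sided. The standard error was the log2 fold change divided by the square root of F, and 95% intervals used its t quantile. The sex difference of the genotype change was fitted on all 15 libraries. Likeness used a prior count of 2. The 6 genes and all gene lists were chosen with earlier results of these data known. The genes named were the 6, Nr5a1, relatives past the threshold and the 2 others of each list with the highest mean count, the flanking genes and the 3 most similar genes. The alternatives were DESeq2 1.42.0, a block for the replicate number, omission of each library in turn, rows summed per symbol, one fit on all 15 libraries, counts divided by 4, no filter or one of 1 CPM on low genes, and scaling by library totals or by the DESeq2 size factors. Those for the flanking genes were chosen after seeing the data. Scripts were tested on simulated data. No 2 replicates were alike within counting noise. No molecular identifiers are described, so floors and counting intervals cover counting error only.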

Additional observations from a re-analysis of the deposited data

Results flagged for a closer look

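Sox14 in PE+/- female replicate 2 was at 0.552 CPM (13 counts), while the other 3 PE+/- females had 0 counts. Dixon's ratio, computed for 18 groups of 4 libraries over the 6 genes, was above its 95% critical value here alone. With the other 3 libraries tied at 0 the ratio is 1 for any count above 0, so that it says nothing of how unusual the value is, and the rate of about 1 in 20 by chance does not apply. The value is about 3 fragments.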

How the results depend on the processing

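Genotype differences of the 6 genes kept their sign under every alternative run. The genes were chosen for that direction and their groups did not overlap, so the kept sign is no support for it. Of the 6 genes, 0 passed between the sexes under any alternative. The labels name no pairing behind the replicate numbers. Deviations of same-numbered libraries correlated by -0.08 to 0.13. Differently numbered libraries were not set beside them, so whether the numbers mark a shared batch was not tested. With the replicate number as a block, no gene of the table passed in males and 1 of 18085 in females, so 0 of the 6 genes and 0 relatives passed in either sex, which is not particular to them, and the log2 fold change of Coch in females was 6.78, against 5.19 without it. Leaving out 1 library gave 3 to 5 of 6 in males and 2 to 4 of 6 in females, and DESeq2 6 in each. One fit on all 15 libraries also gave 6 in each, beside 15 of 19286 genes called higher in males and 325 in females. Counts divided by 4 gave 6 in females, beside 106 of 14388 genes called higher, and in males the same genes as the main fit. Counts of called relatives in males were 1 by DESeq2 (Sox6), and in females 3 by DESeq2 (Sstr5, Sox11 and Sox9), 2 with one fit on all libraries, 0 with no low-count filter and 0 to 2 on leaving out 1 library. The number of genes with the larger change in females was 4 to 6 on leaving out 1 library. Values near 0 changed sign. With library totals these were Sstr1 (0.042) and Robo2 (0.073) in males and Coch between PE+/- sexes (0.0069). Under the block they were Sstr1 (0.059) and Robo2 (0.050) in males, Cyth1 in females (0.087), and Ces1d (-0.064), Nell1 (-0.041) and Sox14 (-0.16) between PE-/- sexes. On leaving out 1 library, male values ran from -0.049 to 0.16 for Dcbld2, -0.19 to 0.037 for Sox4, -0.059 to 0.59 for Ces2g, -0.0033 to 0.19 for Slit2, -0.18 to 0.23 for Robo2, -0.040 to 0.24 for Sstr5 and -0.40 to 0.53 for Sstr1. Female values ran from -0.079 to 0.36 for Sstr1, -0.21 to 0.050 for Cyth1 and -0.021 to 0.65 for Cyth3. Between PE+/- sexes they ran from -0.13 to 0.20 for Ces1d, -1.17 to 0.30 for Coch and -0.23 to 0.36 for Psd2, and between PE-/- sexes from -0.18 to 0.31 for Sox14, -0.23 to 0.17 for Ces1d and -0.045 to 0.22 for Nell1. The cause was not tested. Counts near the floor limit Coch and Sox14 in PE+/- mice, and Psd2 in PE+/- female replicate 1.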
